A study of Rattus norvegicus with 8 samples.

Results

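The 9 genes described here belong to antigen presentation and to the interferon response, and they were chosen by gene symbol from the platform's annotation of the array. Class II presentation is represented by RT1-Da, RT1-Db1, RT1-Ba and RT1-Bb, class I presentation by B2m, Tap1 and Tap2, and the interferon genes by Ifitm3 and Irf1. They are 9 of the 4736 genes that a probe set with a single symbol names, and they hold 19 probe sets. Liver RNA of 8 male Fischer 344 rats was measured on Affymetrix Rat Genome U34 arrays (version A), with 4 rats given D3T and 4 given vehicle. D3T is a dithiolethione, a sulfur compound known for raising detoxification enzymes by way of Nrf2, and it was given by gavage at 0.3 mmol per kg body weight in saturated sucrose on days 1, 3 and 5. Rats of the vehicle group were gavaged with 0.2 ml of the sucrose alone. The labels name the same days for 3 of the 4 vehicle rats and no day for vehicle replicate 2. All rats ate AIN 76A chow, and the labels give the age as 6 with no unit. The comparison of D3T with vehicle asks how the liver transcripts differed after the doses.

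Class II molecules are made of an alpha and a beta chain and present peptides taken up from outside the cell to helper T cells. In the rat, RT1-Da and RT1-Db1 encode the alpha and beta chains of the RT1-D molecule, and RT1-Ba and RT1-Bb those of RT1-B. In liver, class II is known mainly from Kupffer cells, dendritic cells, B cells and sinusoidal endothelium, and not from resting hepatocytes. Class I molecules sit on nearly all nucleated cells with B2m as their light chain, and they present peptides that the transporter made of Tap1 and Tap2 carries into the endoplasmic reticulum. Both branches can be induced by interferon gamma, in part through the transcription factor Irf1. Ifitm3 encodes an interferon-induced membrane protein that hinders entry of viruses into cells.

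Signals are linear MAS5 intensities scaled to a common level on each array, and each fold change sets D3T over vehicle arrays in a limma fit of log2 signals. A probe set passed when its Benjamini-Hochberg adjusted p, over all 5244 probe sets tested, was under 0.05. The 9 genes were put together with differences in these arrays already known, so their values and calls are a description and count as no independent evidence. Of their 19 probe sets, 16 were bright enough to be tested. In D3T livers 5 of these 16 were lower and 0 were higher (limma), against 6.48% lower and 4.2% higher among all 5244. At an unadjusted p under 0.05 there were 9 of the 16, each lower, against 16.7% lower among all 5244. All 16 fold changes were below 1, with a median of -0.57 on the log2 scale, against 0.02 over all probe sets. Those of Tap2 (-0.02), M22366_at of RT1-Ba (-0.06) and X57523_at of Tap1 (-0.09) lay near 0 on that scale and changed sign in some other fits. All D3T arrays lay below all vehicle arrays for 6 of the 16, against 11.3% of all probe sets. With each gene taken as its brightest tested probe set, 3 of the 9 were lower and 0 higher, against 5.84% lower and 3.71% higher among 3150 genes. RT1-Da, RT1-Db1 and Ifitm3 are those 3.

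The 5 probe sets that passed all have names with a suffix such as _g or _s, with which Affymetrix marks probe sets that can share sequence with other transcripts. Of the 8 tested probe sets with such a name, 5 passed and the median log2 fold change was -0.72. Of the 8 without, 0 passed, 2 had an unadjusted p under 0.05, and the median was -0.28. RT1 genes are close relatives, so signals of such probe sets may include those of related RT1 genes. The part of shared sequence in the differences was not tested.

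**Figure D1:**
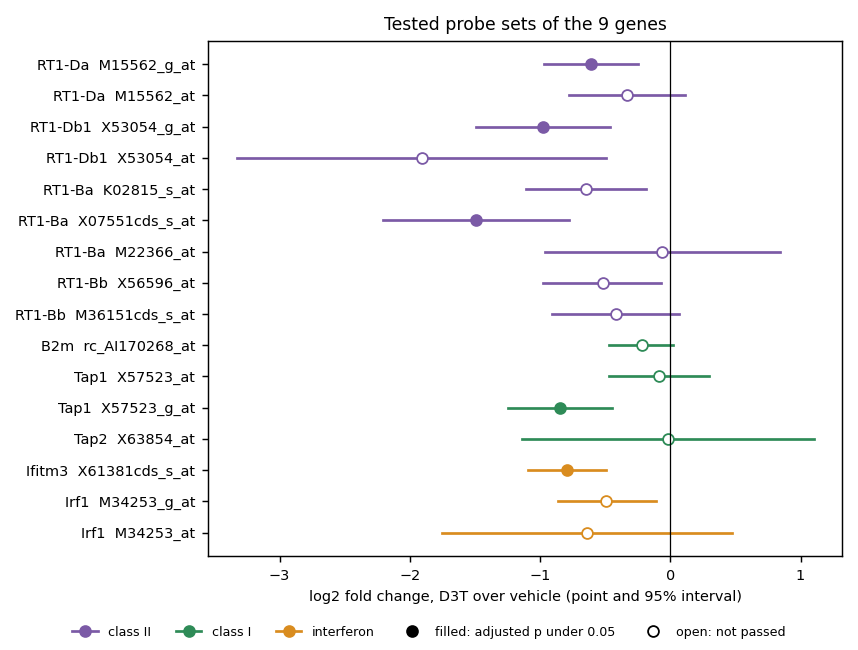
Log2 fold change of D3T over vehicle (x axis, point and 95% interval from limma) for each of the 16 tested probe sets of the 9 genes (rows), coloured by class. All 16 points lie left of 0, and the 5 filled points are those with an adjusted p under 0.05.

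Among the class II genes, 1 of 2 tested probe sets of RT1-Da, 1 of 2 of RT1-Db1 and 1 of 3 of RT1-Ba passed, lower in D3T livers. RT1-Bb did not pass. The genes have 12 probe sets, of which 9 were tested, and 3 of the 9 passed, all lower. All 9 log2 fold changes were below 0, from -1.91 to -0.06, with a median of -0.61. These are bulk livers, where fewer cells of a type and less RNA per cell cannot be told apart.

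The promoters of these 4 genes are shown because class II promoters are known for a CCAAT sequence, the Y box, bound by the factor NF-Y. The sequences are the 150 bases before each gene's start in RefSeq's rat assembly GRCr8, a reference of another rat strain than Fischer 344. All 9 genes had an entry. Capitals mark CCAAT or its reverse complement ATTGG. The windows are chr20:4515265-4515414 on the plus strand, chr20:4560163-4560312 on the minus strand, chr20:4576907-4577056 on the plus strand and chr20:4604119-4604268 on the minus strand.
RT1-Da: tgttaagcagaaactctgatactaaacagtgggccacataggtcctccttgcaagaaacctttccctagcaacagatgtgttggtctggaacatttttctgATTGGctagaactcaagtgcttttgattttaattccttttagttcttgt
RT1-Db1: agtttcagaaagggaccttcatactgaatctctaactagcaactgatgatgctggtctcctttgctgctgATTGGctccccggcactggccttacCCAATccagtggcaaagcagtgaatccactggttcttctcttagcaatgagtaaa
RT1-Ba: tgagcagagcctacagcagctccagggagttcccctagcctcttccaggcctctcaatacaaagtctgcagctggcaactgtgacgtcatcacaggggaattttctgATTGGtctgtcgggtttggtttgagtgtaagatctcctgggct
RT1-Bb: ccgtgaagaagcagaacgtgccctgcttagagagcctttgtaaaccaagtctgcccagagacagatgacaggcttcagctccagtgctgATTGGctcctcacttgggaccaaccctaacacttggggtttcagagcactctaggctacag
The motif ATTGG began 49 bases before the start in RT1-Da, 80 in RT1-Db1, 43 in RT1-Ba and 61 in RT1-Bb. In all 4 it lies within the longer run CTGATTGG, a motif chosen after the sequences were seen. Searched on both strands of promoters from 250 bases before to 50 after the start, CCAAT was in 37.5% of 33469 promoters and CTGATTGG, which contains it, in 3.5%. Among the 9 genes CCAAT was in 6, these 4 and also B2m and Irf1. A match is a description of letters and no measured binding.

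RT1-Da, the alpha chain of RT1-D, had signals of 993.7, 975.0, 864.2 and 1274 in D3T livers, against 1407, 1582, 1949 and 1332 in vehicle livers, at its brighter probe set M15562_g_at. The groups did not overlap, with the highest D3T array, replicate 4, just below the lowest vehicle array. The mean was 1027 ± 174.7 in D3T and 1567 ± 275.0 in vehicle livers (SD, n = 4 each), 1.53-fold lower in D3T (log2 fold change -0.61 ± 0.16, limma adjusted p = 0.0377). The other probe set of this accession, M15562_at, averaged 556.0 ± 132.2 in D3T and 696.6 ± 136.7 in vehicle livers and did not pass (-0.33 ± 0.20, limma adjusted p = 0.294). RT1-Da passed in 2 of the 8 fits that left out an array, and the replacement of its brighter probe set by the mean of both gave an adjusted p of 0.101 (limma).

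RT1-Db1, the beta chain of RT1-D, had signals of 640.6, 449.0, 458.8 and 657.6 in D3T livers, against 771.1, 923.1, 1639 and 1113 in vehicle livers (X53054_g_at). All D3T arrays were below all vehicle arrays, and vehicle replicate 3 stood highest. The mean was 551.5 ± 113.0 in D3T and 1112 ± 378.5 in vehicle livers (SD, n = 4 each), 1.97-fold lower in D3T (log2 fold change -0.98 ± 0.23, limma adjusted p = 0.0271). The dimmer probe set X53054_at had signals of 120.8, 14.8, 11.6 and 131.1 in D3T livers, against 121.9, 174.9, 279.1 and 217.1 in vehicle livers. There D3T replicates 2 and 3 lay below the floor of 20.3 to which low signals were raised, and the groups overlapped at 1 array. Its log2 fold change of -1.91 ± 0.64 was the largest of the 16 and did not pass (limma adjusted p = 0.0815). X53054_g_at passed in 4 of the 8 fits that left out an array. It did not pass with no filter (limma adjusted p = 0.0917), no intensity trend (0.0567) or the replicate block (0.059). The mean of both probe sets passed (-1.44, limma adjusted p = 0.0443).

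RT1-Ba, the alpha chain of RT1-B, has 3 tested probe sets that gave different sizes of change. The brightest, K02815_s_at, had 744.6, 757.0, 689.5 and 797.7 in D3T livers, against 775.1, 1139, 1732 and 1216 in vehicle livers. The D3T arrays lay close together, vehicle replicate 1 fell among them, and the difference did not pass (log2 fold change -0.65 ± 0.21, limma adjusted p = 0.0711). It passed without vehicle replicate 1 (-0.84, limma adjusted p = 0.0235) and among the brightest 30% of probe sets (-0.65, 0.0481). X07551cds_s_at had 160.2, 496.6, 271.3 and 371.3 in D3T livers, against 579.5, 929.8, 1119 and 834.9 in vehicle livers. Its groups did not overlap, and its mean of 324.9 ± 143.3 in D3T and 865.8 ± 224.5 in vehicle livers was a 2.82-fold lower signal in D3T (log2 fold change -1.49 ± 0.32, limma adjusted p = 0.0185). M22366_at averaged 266.2 ± 155.6 in D3T and 255.8 ± 89.3 in vehicle livers, with overlapping groups (-0.06 ± 0.41, 95% interval -0.96 to 0.84, limma adjusted p = 0.931). The sign of M22366_at turned in 5 of the 20 other fits, so no direction is given for it.

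RT1-Bb, the beta chain of RT1-B, had signals of 398.4, 337.7, 296.2 and 513.0 in D3T livers, against 413.5, 649.1, 602.4 and 540.5 in vehicle livers (X56596_at). Only D3T replicate 4 overlapped the vehicle arrays, at vehicle replicate 1. The mean was 386.3 ± 94.3 in D3T and 551.4 ± 102.1 in vehicle livers, and the log2 fold change of -0.52 (95% interval -0.98 to -0.07) did not pass (limma adjusted p = 0.123). M36151cds_s_at averaged 362.3 ± 56.8 in D3T and 497.2 ± 161.5 in vehicle livers and did not pass either (-0.42 ± 0.22, limma adjusted p = 0.24). The remaining 3 probe sets of RT1-Bb were below the floor on every array and were not tested.

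**Figure D2:**
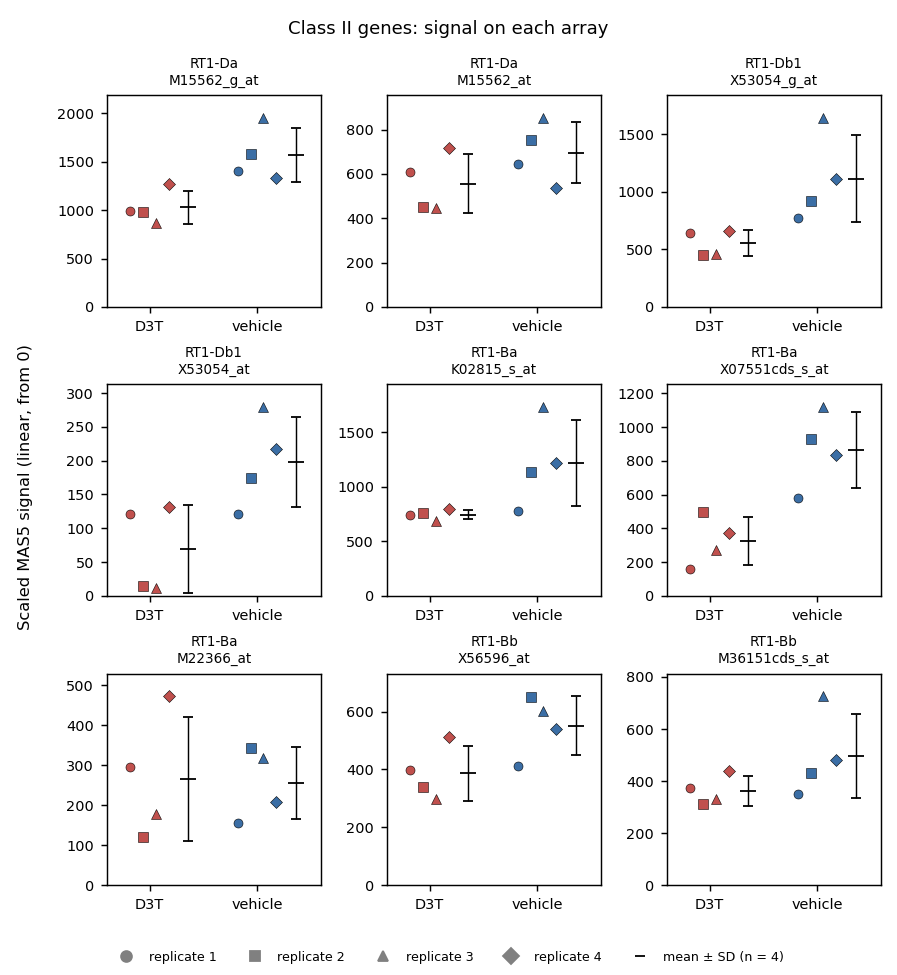
Scaled MAS5 signal (y axis, linear, from 0) of the 9 tested class II probe sets on each array, with D3T left of vehicle, 1 symbol per replicate number and the mean ± SD (n = 4) beside each group. The groups are separate for M15562_g_at, X53054_g_at and X07551cds_s_at, and vehicle replicate 3 is the highest array in 7 of the 9 panels.

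Within the groups, many of the class II probe sets were high or low on the same arrays, although correlations of their deviations from the group means ran from -0.24 to 0.97 between pairs of probe sets. Vehicle replicate 3 was the highest array for 7 of the 9 probe sets, D3T replicate 3 the lowest for 5 and D3T replicate 2 the lowest for 3. The geometric mean of the 9 signals, floored as for the fit, was 396.6, 298.8, 282.8 and 513.6 in D3T replicates 1 to 4, against 456.4, 646.0, 838.3 and 595.7 in vehicle replicates 1 to 4. D3T replicate 4 was above vehicle replicate 1 in this mean, so the groups overlapped. Without vehicle replicate 3 the 3 class II calls were lost, with limma adjusted p of 0.104 for RT1-Da, 0.061 for RT1-Db1 and 0.0605 for X07551cds_s_at of RT1-Ba. The log2 fold changes without that array were -0.50, -0.77 and -1.36. Over all 16 probe sets, 1 of the 5 calls was left without it, that of Ifitm3, beside a count over all probe sets of 240 against 560.

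Of the 3146 genes that are no class II member, the 5 whose log2 signal was most like the class II mean over the 8 arrays were Cct6a, Champ1, Ifitm3, Cd74 and Scfd1, with Pearson correlations from 0.926 to 0.945. For deviations from the group means, which leave out the difference between D3T and vehicle, they were Gna12, RT1-N3, Ifitm3, Cct6a and Itpkb, with correlations from 0.918 to 0.954. Of these, Gna12 was higher in D3T livers (log2 fold change 0.53, limma adjusted p = 0.0474). RT1-N3 (0.01, 0.987) and Itpkb (0.73, 0.143) did not pass, and Ifitm3 (-0.79, 0.00725) and Cct6a (-0.95, 0.0268) were lower. Ifitm3 and Cct6a are in both lists. These are descriptions over 8 arrays, chosen as the highest of many genes, and the points share array, group and scaling.

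Other genes of class II presentation were described from a list of 22 without the 4 genes, of which 16 have a probe set and 12 were tested. At their brightest probe set 2 of the 12 were lower in D3T livers, 0 were higher (limma) and 10 did not pass. Among all 3150 genes 5.84% were lower and 3.71% higher. The median log2 fold change of the 12 was 0.13, against 0.03 over all genes. At an unadjusted p under 0.05 there were 5, of which 1 was higher and 4 were lower, against 13% higher and 16.8% lower among all 3150 genes. Cd74, the invariant chain that guides class II molecules to the peptide-loading compartment, had 565.6, 358.3, 558.7 and 739.9 in D3T livers, against 1051, 1378, 2028 and 1471 in vehicle livers. Its groups did not overlap, and it was 2.68-fold lower in D3T (log2 fold change -1.42 ± 0.24, limma adjusted p = 0.00636). All 4 probe sets of Cd74 gave log2 fold changes below 0, from -1.42 to -0.85, of which 2 passed. Ctss, the protease that trims the invariant chain, averaged 878.0 ± 69.1 in D3T and 1529 ± 322.0 in vehicle livers, 1.71-fold lower in D3T (log2 fold change -0.78, limma adjusted p = 0.0163). Ctss lost its call without vehicle replicate 3 (limma adjusted p = 0.0516).

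The peptide exchange factors of class II loading gave values that differed between genes and probe sets. RT1-DMa averaged 610.9 ± 73.1 in D3T and 506.6 ± 42.5 in vehicle livers at its brightest probe set and did not pass (0.27, limma adjusted p = 0.232), nor did its other tested set (0.06, 0.93). RT1-DMb, its partner chain, averaged 462.3 ± 26.2 in D3T and 526.7 ± 28.5 in vehicle livers at its brightest probe set. There all D3T arrays lay below all vehicle arrays, yet the difference did not pass (-0.19, limma adjusted p = 0.343). Another RT1-DMb probe set, U31599_g_at, averaged 43.8 ± 5.94 in D3T and 170.9 ± 15.5 in vehicle livers and passed (-1.97, limma adjusted p = 0.00192). RT1-DOa, a chain of the inhibitor of that exchange factor, averaged 1237 ± 212.2 in D3T and 1175 ± 166.6 in vehicle livers (0.07, limma adjusted p = 0.801). These genes were singled out after their values were seen.

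Class I presentation gave 1 lower call among the 4 probe sets of B2m, Tap1 and Tap2, and 0 of these 3 genes passed at its brightest probe set (limma). The 4 log2 fold changes had a median of -0.16, and 1 of the 4 had an unadjusted p under 0.05. B2m, the light chain, had signals of 6003, 7133, 6874 and 6289 in D3T livers, against 7700.2, 8770.3, 7301 and 6964 in vehicle livers. Only D3T replicate 2 reached the vehicle arrays, at vehicle replicate 4. The mean was 6575 ± 519.8 in D3T and 7684 ± 784.3 in vehicle livers (SD, n = 4 each), and the log2 fold change of -0.22 (95% interval -0.47 to 0.02) did not pass (limma adjusted p = 0.207).

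Tap1, a chain of the peptide transporter, differed between its probe sets of the same accession. X57523_at had 765.6, 594.9, 704.3 and 1061 in D3T livers, against 797.7, 908.8, 770.7 and 776.4 in vehicle livers. Here D3T replicate 4 was the highest array of all, and the difference did not pass (log2 fold change -0.09 ± 0.18, limma adjusted p = 0.76). X57523_g_at had 200.7, 215.8, 261.0 and 203.0 in D3T livers, against 333.0, 365.1, 395.1 and 503.9 in vehicle livers. Its groups did not overlap, with means of 220.1 ± 28 in D3T and 399.3 ± 74.2 in vehicle livers, 1.8-fold lower in D3T (log2 fold change -0.85 ± 0.18, limma adjusted p = 0.017). The mean of both probe sets gave -0.47 (limma adjusted p = 0.0479). Without vehicle replicate 3 X57523_g_at kept its log2 fold change of -0.85, with an adjusted p of 0.0506 (limma).

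Tap2, the partner of Tap1, had signals of 166.1, 29.9, 114.5 and 170.8 in D3T livers, against 79.6, 125.2, 99.2 and 103.6 in vehicle livers. The D3T arrays lay on both sides of the vehicle arrays. The mean signal was 120.3 ± 65.4 in D3T and 101.9 ± 18.7 in vehicle livers, while the log2 fold change was -0.02 ± 0.51 (95% interval -1.14 to 1.10, limma adjusted p = 0.984). The interval is wide enough that no direction can be read from it.

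B2m holds ATTGG 64 bases before its start, and Tap1 holds an interferon-type motif, GAAANNGAA or its reverse complement, 120 bases before its start. They are shown for comparison with the class II and interferon promoters. The windows are chr3:129549180-129549329 on the plus strand, with ATTGG in capitals, and chr20:4668544-4668693 on the minus strand, with the interferon-type motif in capitals.
B2m: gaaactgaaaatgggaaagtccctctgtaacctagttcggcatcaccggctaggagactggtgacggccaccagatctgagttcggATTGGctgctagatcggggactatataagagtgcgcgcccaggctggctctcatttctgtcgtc
Tap1: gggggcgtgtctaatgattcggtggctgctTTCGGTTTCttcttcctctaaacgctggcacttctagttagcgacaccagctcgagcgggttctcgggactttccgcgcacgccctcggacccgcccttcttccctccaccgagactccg
Searched the same way, GAAANNGAA was in 9.71% of the 33469 promoters and in those of Ifitm3, B2m, Tap2 and Tap1 among the 9 genes.

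**Figure D3:**
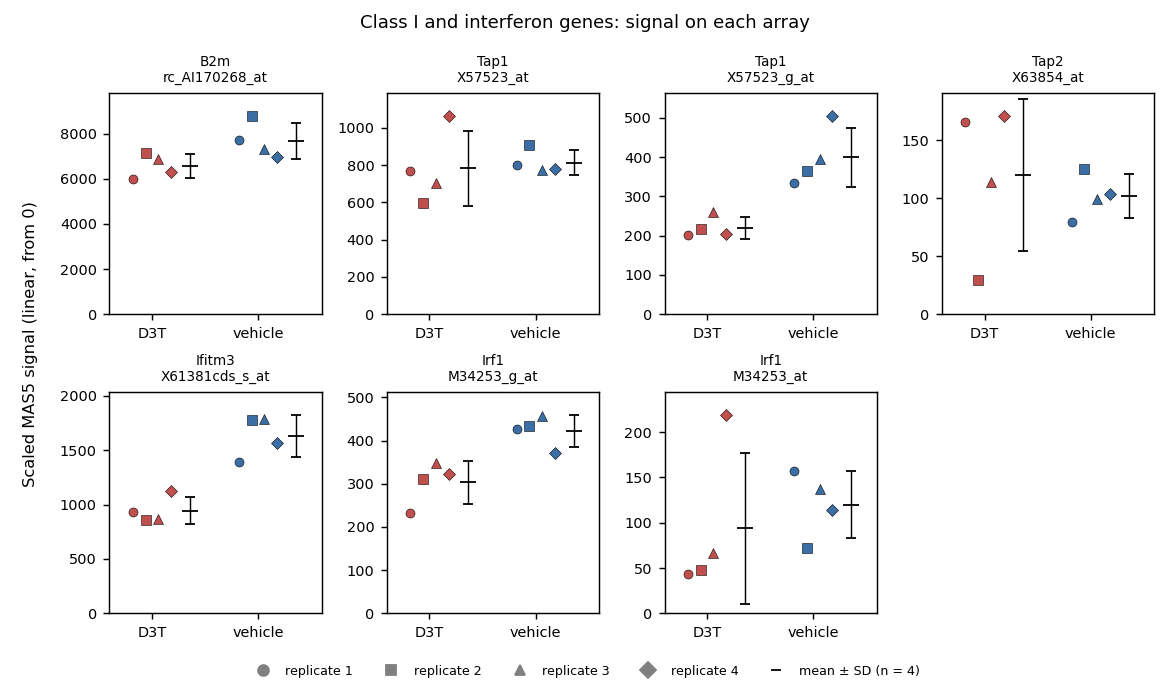
Scaled MAS5 signal (y axis, linear, from 0) of the tested class I (B2m, Tap1, Tap2) and interferon (Ifitm3, Irf1) probe sets on each array, with D3T left of vehicle and the mean ± SD (n = 4) beside each group. The groups are separate for X57523_g_at of Tap1, for Ifitm3 and for M34253_g_at of Irf1, and they overlap for the others.

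Of the list of 36 other class I genes, 17 have a probe set and 16 were tested. At their brightest probe set 1 of the 16 was lower in D3T livers, 0 were higher (limma) and 15 did not pass. Among all 3150 genes 5.84% were lower and 3.71% higher, so 1 call is near that share. The median log2 fold change of the 16 was 0.02. At an unadjusted p under 0.05 there were 7, of which 4 were higher and 3 lower, against the same 13% and 16.8% of all genes. The 4 higher were RT1-CE12 (log2 fold change 0.29), Calr (0.37), Pdia3 (0.39) and Hfe (0.44). Other probe sets of Calr gave -0.06 and -0.22, and that of Pdia3 gave -0.13. The 3 lower were Canx (-0.78), Fcgrt (-0.42) and Psme2 (-0.53). The one that passed was Canx, a chaperone that holds class I heavy chains as they fold, with 1200.2 ± 252.9 in D3T and 2064 ± 461.7 in vehicle livers (-0.78, limma adjusted p = 0.0368). Of its 5 probe sets 3 passed, all lower: rc_AI010725_g_at (-1.35, limma adjusted p = 0.00109) and rc_AI010725_at (-0.91, 0.0105) beside the brightest. The other sets gave -0.49 (0.205) and 0.12 (0.692) and did not pass. The brightest set passed in 2 of the 8 fits that left out an array, the rc_AI010725 sets in all 8, and the mean of the 5 sets passed too (-0.68, limma adjusted p = 0.0207). RT1-S3, a class I heavy chain, averaged 1731 ± 141.2 in D3T and 2065 ± 243.2 in vehicle livers at its brightest probe set and did not pass (-0.25, limma adjusted p = 0.199), while its other sets AF029240_at (-0.88, 0.0205) and rc_AI235890_s_at (-0.76, 0.00995) passed, both lower in D3T. RT1-CE16, another heavy chain, averaged 11162 ± 628.6 in D3T and 11185 ± 1215 in vehicle livers (0.00, limma adjusted p = 0.994), at a probe set whose name marks a family of similar sequences. Psmb8, a subunit of the immunoproteasome that cuts peptides for class I, averaged 1699 ± 139.4 in D3T and 1672 ± 243.9 in vehicle livers (0.03, limma adjusted p = 0.89). Psmb9, another of these subunits, averaged 642.8 ± 9.56 in D3T and 744.4 ± 233.8 in vehicle livers at its brightest probe set (-0.15, limma adjusted p = 0.65). Its other probe set, D10757_g_at, averaged 285.3 ± 48.7 in D3T and 578.8 ± 67.8 in vehicle livers and passed (-1.03, limma adjusted p = 0.00589). Fcgrt, a relative of class I that carries antibodies, was lower at X14323cds_g_at (-0.68, limma adjusted p = 0.0127) and did not pass at its brightest set (-0.42, 0.0986) or at X14323cds_at (-0.49, 0.0607). Hfe, a relative of class I that acts in iron uptake, was higher at AF008587_s_at (0.71, limma adjusted p = 0.0418) and did not pass at its brightest set (0.44, 0.13). RT1-CE12, a further heavy chain, averaged 5364 ± 357.0 in D3T and 4413 ± 559.5 in vehicle livers and did not pass (0.29, limma adjusted p = 0.133). RT1-A3, a heavy chain too, gave 0.39 (limma adjusted p = 0.313) and did not pass. RT1-S3, RT1-CE16, RT1-CE12, RT1-A3, Psmb8, Psmb9, Fcgrt and Hfe were chosen after their values were seen.

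Pairs of probe sets from one accession, ending in _at and _g_at, parted in other genes too. Of 512 such pairs with both tested, 364 (71.1%) had the same sign, and the medians were -0.05 for the _at and -0.10 for the _g_at sets. A call was made for 100 pairs, in 27 by both sets, in 44 by the _g_at set alone and in 29 by the _at set alone. RT1-Da, RT1-Db1, Tap1 and Irf1 form 4 of the pairs.

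**Figure D4:**
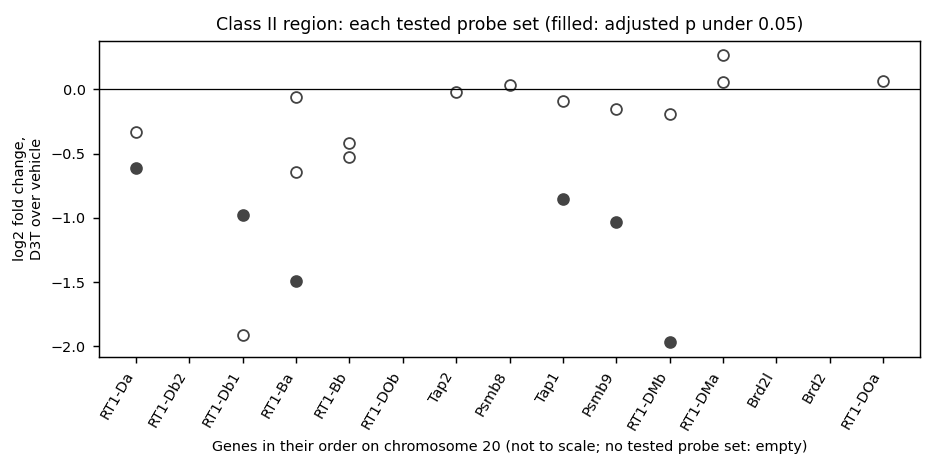
Log2 fold change of D3T over vehicle (y axis) for every tested probe set of the genes from RT1-Da to RT1-DOa, in their RefSeq order on rat chromosome 20 (x axis, not to scale). RT1-Da, RT1-Db1, RT1-Ba, Tap1, Psmb9 and RT1-DMb each have a filled point (adjusted p under 0.05), all below 0, and points of RT1-DMa, RT1-DOa and Psmb8 lie above 0.

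On chromosome 20 RefSeq places RT1-Da, RT1-Db2, RT1-Db1, RT1-Ba, RT1-Bb, RT1-DOb, Tap2, Psmb8, Tap1, Psmb9, RT1-DMb, RT1-DMa, Brd2l, Brd2 and RT1-DOa in this order. Genes with a lower probe set and genes without are interspersed along it. Tap2 and Psmb8, between RT1-Bb and Tap1, had log2 fold changes of -0.02 and 0.03. RT1-Db2, RT1-DOb, Brd2l and Brd2 had no tested probe set. Ifitm3 lies on chromosome 1, B2m on chromosome 3 and Irf1 on chromosome 10.

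The interferon genes were lower at Ifitm3, while Irf1 did not pass. Ifitm3 had signals of 928.9, 857.1, 867.9 and 1127 in D3T livers, against 1393, 1782, 1784 and 1564 in vehicle livers (X61381cds_s_at). All D3T arrays were below all vehicle arrays. The mean was 945.2 ± 125.3 in D3T and 1631 ± 189.0 in vehicle livers (SD, n = 4 each), 1.73-fold lower in D3T (log2 fold change -0.79 ± 0.14, 95% interval -1.09 to -0.49, limma adjusted p = 0.00725). Ifitm3 passed in all 8 fits that left out an array, with limma adjusted p from 0.00744 to 0.03, and in the 12 other alternatives that tested its probe set. Its only probe set has a shared-sequence name, so Ifitm3 was not tested where such names were left out.

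Irf1 had signals of 232.9, 310.9, 347.2 and 323.0 in D3T livers, against 425.9, 433.4, 456.4 and 370.4 in vehicle livers (M34253_g_at). The groups did not overlap, yet the difference did not pass: the mean was 303.5 ± 49.4 in D3T and 421.5 ± 36.5 in vehicle livers (log2 fold change -0.49 ± 0.17, 95% interval -0.86 to -0.11, limma adjusted p = 0.0882). Its other probe set, M34253_at, had 43.2, 47.7, 66.4 and 218.4 in D3T livers, against 157.1, 71.8, 137.2 and 113.5 in vehicle livers. There D3T replicate 4 was the highest array of all and the other D3T arrays the lowest (-0.64 ± 0.50, limma adjusted p = 0.418).

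The promoters of Ifitm3 and Irf1 are shown with the letters TTCNNNGAA, the core of a STAT binding site, and GAAANNGAA, shared by interferon response elements, in capitals. The windows are chr1:205541759-205541908 on the minus strand and chr10:38417785-38417934 on the plus strand, again 150 bases before the start in GRCr8.
Ifitm3: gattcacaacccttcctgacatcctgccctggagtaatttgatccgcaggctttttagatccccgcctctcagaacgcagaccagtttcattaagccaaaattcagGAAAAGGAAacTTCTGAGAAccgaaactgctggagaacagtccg
Irf1: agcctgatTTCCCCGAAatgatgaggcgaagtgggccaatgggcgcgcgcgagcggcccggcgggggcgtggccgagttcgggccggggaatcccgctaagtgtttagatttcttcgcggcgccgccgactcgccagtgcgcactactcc
Ifitm3 holds GAAANNGAA 44 bases and TTCNNNGAA 33 bases before its start, and Irf1 holds TTCNNNGAA 142 bases before its start. TTCNNNGAA, its own reverse complement, was in 8.87% of the 33469 promoters, and among the 9 genes in these 2 alone.

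Of the list of 53 other interferon-regulated and interferon signalling genes, 24 have a probe set and 20 were tested. At their brightest probe set 0 of the 20 passed in limma, against 5.84% lower and 3.71% higher among all 3150 genes. At an unadjusted p under 0.05 there were 2, both lower, against 16.8% lower over all genes. Of the 20, 15 had log2 fold changes below 0, with a median of -0.23, against 0.03 over all genes. The brightest was Irf3, a transcription factor activated by virus sensing, with 1314 ± 82.6 in D3T and 1386 ± 370.1 in vehicle livers (-0.03, limma adjusted p = 0.916). Its sign turned in other settings, and its dimmer set gave 0.03 (limma adjusted p = 0.962). Oas1a, an enzyme of the antiviral response, averaged 821.1 ± 68.6 in D3T and 1118 ± 178.2 in vehicle livers (-0.44, limma adjusted p = 0.0689). Irf7, a transcription factor of the type I interferon response, averaged 275.8 ± 109.3 in D3T and 446.4 ± 82.7 in vehicle livers (-0.75, limma adjusted p = 0.0806), and its other set gave -0.26 (0.511). Ifng itself averaged 109.6 ± 48.6 in D3T and 64.4 ± 17.9 in vehicle livers (0.72, limma adjusted p = 0.216). Casp1, a protease of inflammation, passed at U14647_at (-1.06, limma adjusted p = 0.0494) with overlapping groups, and did not pass at its brightest set (0.04, 0.908) or at U14647_g_at (-0.26, 0.669). Oas1a, Irf7, Ifng and Casp1 were chosen after their values were seen.

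**Figure D5:**
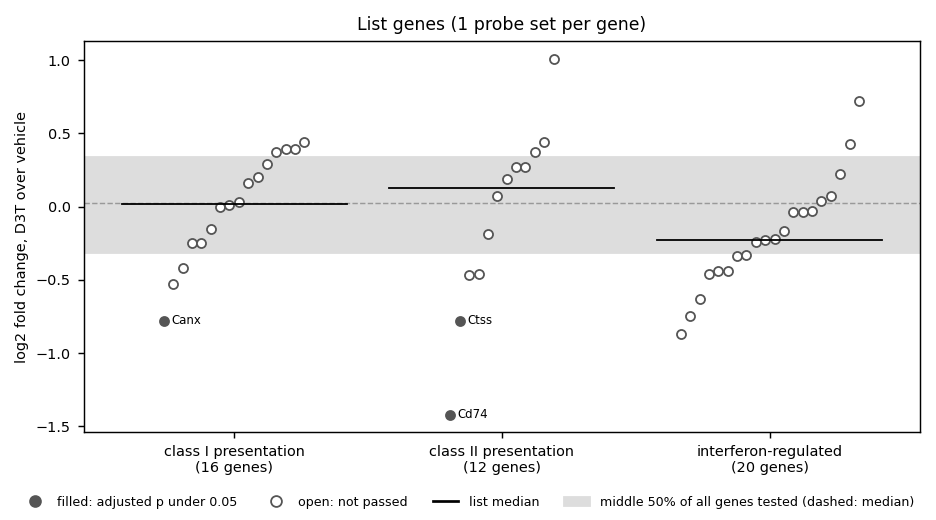
Log2 fold change of D3T over vehicle (y axis) for the other genes of class I presentation (16), class II presentation (12) and the interferon response (20), 1 brightest probe set per gene, without the 9 genes. Canx, Ctss and Cd74 are the filled points (adjusted p under 0.05), the bars are list medians of 0.02, 0.13 and -0.23, and the grey band holds the middle 50% of all genes tested.

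Markers of the cells that carry class II, and of other liver cells, were measured beside it. Of 19 Kupffer cell or macrophage markers, 9 have a probe set and 7 were tested, and their summed signal ran from 4379.9 to 5377 in D3T livers, against 5843 to 6628 in vehicle livers (exact two-sided permutation p = 0.0286, the smallest that 4 against 4 arrays allow). C1qb (-0.79), Aif1 (-1.09) and Cyba (-1.88) were lower in D3T livers, Cd14 (0.80) was higher, and Clec4f (-0.48), Lyz2 (-0.74) and C1qc (0.08) did not pass in limma. Their limma adjusted p were 0.00919 for C1qb, 0.0149 for Aif1, 0.000123 for Cyba and 0.0105 for Cd14. Of 8 B cell markers, 1 has a probe set, Cd79b, with 95.6 to 170.8 in D3T livers, against 70.1 to 195.4 in vehicle livers. Of 14 T or NK cell markers, 12 have a probe set, and their sum ran from 1091 to 1227 in D3T livers, against 893.3 to 1067 in vehicle livers (exact permutation p = 0.0286). Of the 12, 7 were too dim to test, with Prf1 under the floor on every array. Of the 5 tested, 4 had log2 fold changes above 0 and 1 below, and 0 passed in limma. Those at an unadjusted limma p under 0.05 were Cd4 (mean 295.6 in D3T, 216.6 in vehicle livers) and Cd8b (181.2 and 100.4), both higher. Among all 3150 genes 13% were higher at that threshold. The permutation p of the marker sums were not adjusted for the number of sums. Of 6 dendritic cell markers, 1 has a probe set, Batf3, with 8.98 to 18.4 in D3T livers, against 12.5 to 33.7 in vehicle livers. The 4 endothelial markers summed to 430.1 to 640.5 in D3T livers, against 623.2 to 772.3 in vehicle livers (exact permutation p = 0.0857). Of the 3 tested, Lyve1, known from sinusoidal endothelium, averaged 175.6 ± 43.2 in D3T and 298.7 ± 38 in vehicle livers, with no overlap (-0.80, limma adjusted p = 0.0474), and Pecam1 (-0.13, 0.781) and Kdr (-0.32, 0.557) did not pass. The 7 stellate cell markers with a probe set summed to 1584 to 2144 in D3T livers, against 2066 to 3562 in vehicle livers (exact permutation p = 0.0571). Of these, 5 were tested, with a median log2 fold change of -0.53, and Col3a1 alone passed (-0.90, limma adjusted p = 0.0399), with overlapping groups. The 3 bile duct markers summed to 254.7 to 342.4 in D3T livers, against 221.7 to 339.6 in vehicle livers (exact permutation p = 0.543). The 4 measured markers of all leukocytes summed to 268.0 to 379.4 in D3T livers, against 305.4 to 440.8 in vehicle livers (exact permutation p = 0.629). The part of cell numbers in the class II values was not tested.

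Further facts of the arrays bear on these values. Hepatocyte markers were bright on every array, with sums from 262904 to 352725 in D3T livers, against 202663 to 299947 in vehicle livers (exact permutation p = 0.0857). Of the 9 tested, Fgb alone passed, lower in D3T livers with no overlap (log2 fold change -0.80, limma adjusted p = 0.0126). A further 5 were higher at an unadjusted limma p under 0.05, against 13% higher among all 3150 genes. The labels were checked with Nqo1 and Gstp1, known targets of Nrf2, which were 3.44-fold and 29.9-fold higher in D3T livers (limma adjusted p = 0.00115 and 6.37e-07). Red blood cell markers, Hbb and Alas2, summed to 7124 to 9940.2 in D3T livers, against 10707 to 15142 in vehicle livers (exact permutation p = 0.0286). The ratio of 3' to 5' actin signal, a measure of RNA quality, ran from 1.17 to 1.47 in D3T livers, against 1.45 to 1.59 in vehicle livers (exact permutation p = 0.0571). With this ratio as a covariate, 2 of the 16 probe sets passed, M15562_g_at of RT1-Da (limma adjusted p = 0.0365) and Ifitm3 (0.0369), beside 35 of all 5244. Their log2 fold changes were then -1.07 and -1.10. In the same fit Nqo1 did not pass (1.67, limma adjusted p = 0.0802), while Gstp1 passed (4.56, 0.000233). The ranges of the ratio barely overlap between the groups, so this fit cannot part the ratio from D3T. The part of blood and of RNA quality in the differences was not tested. Log2 signals of any pair of arrays correlated between 0.93 and 0.968 over probe sets.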

How the data were processed

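Each of the 8 arrays was taken as 1 rat, since the series design gives 4 rats a group. Per the submitters' processing notes, the authors made the deposited signal intensities with MAS5, Affymetrix's algorithm that combines a set's probe pairs. The sources used here do not state its version, settings or detection calls. Intensities carry no counts, so precision rests on how many arrays there are.

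Arrays were rescaled to a 2% trimmed mean of 500, signals under the 20th percentile (20.3) were raised to it, before log2. Without 59 control probe sets, the brightest 60% of 8740, blind to group, were tested with limma 3.58.1 in R 4.3.3 (lmFit, eBayes with intensity trend). Fold changes near the floor are understated. Standard errors and intervals are limma's, SDs are over the linear signals of 4 arrays. Gene symbols came from the platform's annotation table, which names 1 gene for 7006 probe sets, several for 308 and none for 1426. A further probe set names B2m among several genes and was left out. A gene is given by its brightest tested probe set, and for the 9 genes every other probe set is given too. Promoters and gene order are RefSeq's for GRCr8. The members and lists were chosen with earlier results of these data known. From the lists, genes past the threshold are named, or the brightest where none passed. The scripts were tested on simulated data. Alternatives changed scaling, floor, filter, variance model, replicate block, actin covariate, shared-sequence names, the probe set of a gene and the arrays used.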

Additional observations from a re-analysis of the deposited data

Results flagged for a closer look

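Of 50 groups of 4 arrays checked for an array far from the others, 2 had one, and chance gives about 1 in 20. C1qc, a complement gene among the macrophage markers, had 1573 in vehicle replicate 2, against 1021 in the next highest vehicle array. Canx had 826.9 in D3T replicate 2, against 1268 in the next lowest D3T array (rc_AI235707_g_at). Without D3T replicate 2 the adjusted p of Canx was 0.059 in limma. The cause of either value was not tested.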

How the results depend on the processing

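Of the 16 probe sets of the 9 genes, 5 passed, and the count was 2 with no filter, 3 with no intensity trend, 2 with the replicate block, 2 with the actin covariate and 0 of 8 where probe sets with shared-sequence names were left out, where 2 of the 8 had an unadjusted p under 0.05. Among the brightest 30% it was 6 of 12, with K02815_s_at of RT1-Ba gained. It ran from 1 to 5 when 1 array was left out, with 1 without vehicle replicate 3 and 3 without D3T replicate 2 or D3T replicate 3. Over all probe sets, 560 passed, with 309 under no filter, 333 with no intensity trend, 290 with the replicate block, 35 with the actin covariate (24 higher, 11 lower), 261 without shared-sequence names and 240 to 695 without 1 array. Deviations of same-numbered arrays correlated from -0.198 to 0.063, and those of differently numbered arrays from -0.138 to 0.21. These values cannot show whether the numbers pair the rats. RT1-Db1, at -0.98 and passed, gave -1.52 with the actin covariate (limma adjusted p = 0.0667) and -0.96 without vehicle replicate 4 (0.0638), and RT1-Da, at -0.61 and passed, gave -0.52 with quantile normalization (0.0619); none of these 3 values passed. The sign of Tap1 at X57523_at turned with quantile normalization (log2 fold change 0.00) and without D3T replicate 2 (0.03, in a range of -0.25 to 0.03 without 1 array). That of Tap2 turned with 16 added in place of a floor (0.03), with the floor raised to the 40th percentile (0.26), array weights (0.22), without vehicle replicate 2 (0.09) and without D3T replicate 2 (0.56, in a range of -0.28 to 0.56). That of Irf3 turned with quantile normalization (0.05), array weights (0.01), the actin covariate (0.26) and without vehicle replicate 1 or 2 (0.07 each, in a range of -0.23 to 0.07). Of the other fits of single genes, 334 kept direction and side of the threshold, 33 lost a call and 6 gained one. Causes were not tested, beyond the fewer probe sets tested where names were left out. Low signals limit what can be seen for Tap2 and the dim probe sets of RT1-Db1 and RT1-Bb.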
